A study of Homo sapiens with 4 samples.

Results

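The genes of androgen glucuronidation were followed from LNCaP95 cells to LN95(KO) cells. They were 10 genes chosen by function, of 60880 listed in the counts: the enzymes UGT2B17, UGT2B15, UGT2B28, UGT2B11 and UGT2B4, the genes UGDH and UGP2 that make UDP-glucuronate, the transporters SLC35D1 and SLC35D2, and GUSB, which reverses the reaction. LNCaP95, labelled LN95 and wild type, is a human prostate cancer line derived from LNCaP that grows without androgen. LN95(KO) is its derivative in which UGT2B17 was targeted with CRISPR vectors. RNA-Seq was available for 2 libraries of each (LNCaP95 replicates 1 and 2, LN95(KO) replicates 3 and 4), all from untreated cells in medium with charcoal-stripped serum, which is depleted of steroids. How many clones make up the knockout line is not stated, and nothing says that the replicates were separate cultures, so p-values measure the spread between these libraries only. The labels name LN95 for all 4 libraries, while the series text names LNCaP for the knockout line.

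Glucuronidation joins glucuronic acid to a small molecule, which makes it more soluble and easier to excrete. The sugar comes from UDP-glucuronate, made in the cytosol from UDP-glucose and carried into the endoplasmic reticulum, where the UGT enzymes sit. In prostate cells UGT2B17 and UGT2B15 inactivate dihydrotestosterone and its metabolites in this way, and both genes are known to be repressed by the androgen receptor. The enzymes of the UGT2B family are encoded side by side on chromosome 4 and resemble each other closely.

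That resemblance bears on every read counted here. The first 60 coding bases of each enzyme are shown because they let the reader see how few letters separate one gene from another. The sequences come from GENCODE transcripts on GRCh37 and lie within 1 exon each. UGT2B17 is all in lower case, and capitals in the others mark bases that differ from UGT2B17 at the same position.
UGT2B17 (chr4:69434143-69434202, minus strand): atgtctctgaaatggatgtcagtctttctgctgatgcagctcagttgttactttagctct
UGT2B15 (chr4:69536277-69536336, minus strand): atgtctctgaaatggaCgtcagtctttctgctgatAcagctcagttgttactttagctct
UGT2B28 (chr4:70146219-70146278, plus strand): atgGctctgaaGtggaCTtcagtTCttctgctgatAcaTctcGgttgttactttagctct
UGT2B11 (chr4:70080381-70080440, minus strand): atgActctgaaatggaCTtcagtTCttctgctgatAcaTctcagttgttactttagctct
UGT2B4 (chr4:70361520-70361579, minus strand): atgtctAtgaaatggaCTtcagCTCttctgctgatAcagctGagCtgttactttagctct

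The enzymes fell into pairs by sequence. UGT2B15 differed from UGT2B17 at 2 of these 60 bases, UGT2B11 at 7, and UGT2B28 and UGT2B4 at 9 each. Over the whole coding sequence, UGT2B17 and UGT2B15 were 96.5% identical, with 55 differing columns in 1590. UGT2B28 and UGT2B11 were 97.0% identical, with 47 differing columns in 1587. The other 8 pairs among the 5 enzymes were between 83.9% and 90.2% identical.

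Exact sharing of short stretches was also counted, because a read that matches more than 1 gene equally well is left out or can be placed on the wrong gene. Of the 50-base windows of the UGT2B17 transcript, 23.3% occurred letter for letter in a transcript of another gene, and 557 of those 567 windows were in UGT2B15. The share was 27.1% for UGT2B15, 35.2% for UGT2B28, 47.8% for UGT2B11 and 3.17% for UGT2B4. UGT2B11 shared 369 windows with UGT2B28 and 456 with the pseudogene UGT2B25P. Among the other genes, SLC35D2 shared 51.5% of its windows, all with the overlapping gene ENSG00000285269. GUSB shared 1.77%, mostly with its pseudogenes, UGDH 0.301%, and UGP2 and SLC35D1 none. The read length was not given, so these shares describe the genes and not the share of reads affected.

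Of the 10 genes, 9 passed the filter on low counts and were tested with edgeR together with all 15626 genes that passed. A gene was called when its adjusted p was under 0.05 and it changed more than 2-fold. Of the UGT2B enzymes 4 were called: UGT2B17 and UGT2B15 fell, and UGT2B28 and UGT2B4 rose. None of the other 5 tested genes was called. Over all tested genes 18.0% were called, 8.86% higher and 9.13% lower, so calls were common in this comparison. At an adjusted p under 0.05 with any fold, 7 of the 9 passed, beside 59.8% of all genes. In 8 of the 9 the scaled counts of the groups did not overlap, beside 79.8% of all genes. The median absolute log2 fold change was 0.82 in the 9 genes and 0.37 over all genes tested. The 9 include UGT2B17, the targeted gene, and UGT2B28, which passed the filter through LN95(KO) alone, where it is high. Nothing is therefore read from these counts and this median beside the values over all genes.

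**Figure D1:**
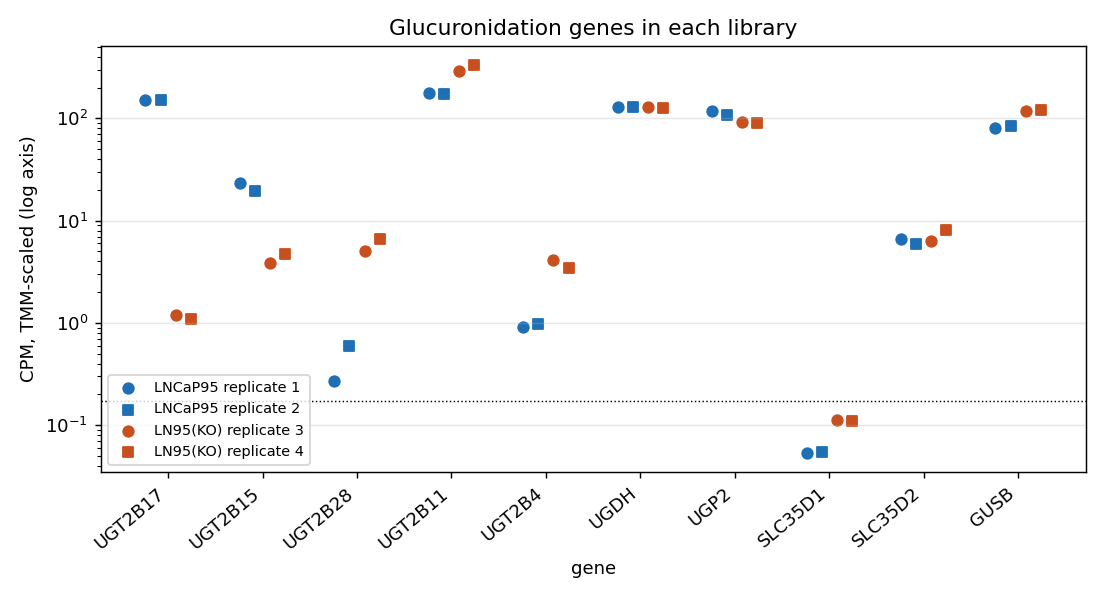
Level of each of the 10 genes in each library, in CPM (counts scaled to a common library size with TMM factors), on a log axis; blue points are LNCaP95, orange points LN95(KO), and the dotted line is the level of 3 counts in the shallowest library. UGT2B17 and UGT2B15 lie lower in LN95(KO), UGT2B28 and UGT2B4 lie higher, and SLC35D1 is below the line in every library.

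UGT2B17, the targeted gene, was examined first. It is a protein-coding gene on the minus strand of chromosome 4 (GRCh37 chr4:69402891-69442131) with 7 exon blocks. It gave 2788 and 2748 reads in LNCaP95, against 21 and 20 in LN95(KO). The level fell from 151 ± 0.721 CPM (SD, n = 2) to 1.14 ± 0.064 CPM. On the log2 scale the change was -7.04 (SE 0.10, 95% interval -7.25 to -6.82, edgeR adjusted p = 1.18e-18). What was left was 0.758% of the LNCaP95 level. Its level thus matched the labels of all 4 libraries. Whether the remaining reads come from the edited gene or from its close relatives was not tested.

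UGT2B15, which inactivates the same androgens, was the second enzyme to fall. It lies next to UGT2B17 on the same strand (chr4:69512315-69536370). It gave 430 and 361 reads in LNCaP95, against 68 and 86 in LN95(KO), and the groups were far apart. The log2 fold change was -2.33 (SE 0.14, 95% interval -2.61 to -2.04, edgeR adjusted p = 1.37e-10), a level 5.02-fold lower.

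The close likeness of UGT2B15 to UGT2B17 stood beside this fall as follows. UGT2B15 reads equalled 15.4% and 13.1% of UGT2B17 reads in the parental line. The fall of UGT2B15, 17.2 CPM, equalled 11.4% of the LNCaP95 level of UGT2B17. How many reads were placed on the wrong gene of the pair was not tested. In LN95(KO) the order was turned, with UGT2B17 at 26.7% of the UGT2B15 level. With both genes summed into 1 row before fitting, the log2 fold change was -4.99 (SE 0.08, edgeR adjusted p = 4.26e-18).

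UGT2B28 rose from the edge of detection. This enzyme, reported to act on androgens and bile acids, lies on the plus strand (chr4:70146193-70160768). It gave 5 and 11 reads in LNCaP95, against 89 and 120 in LN95(KO). Its log2 fold change was 3.72 (SE 0.31, 95% interval 3.07 to 4.36, edgeR adjusted p = 1.29e-08). With so few LNCaP95 reads the size rested on single libraries, at 4.39 without LNCaP95 replicate 2 and 3.26 without LNCaP95 replicate 1. UGT2B28 passed the filter on low counts through LN95(KO) alone. Because UGT2B28 shares most with the far more abundant UGT2B11, the reads of both were set side by side. UGT2B28 reads equalled 0.153% and 0.349% of UGT2B11 reads in LNCaP95, against 1.75% and 1.99% in LN95(KO). The percentage in each LN95(KO) library was thus several times that in either LNCaP95 library, and UGT2B28 rose relative to UGT2B11 as well. Placement of reads between them was not tested.

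UGT2B4, an enzyme of bile acid glucuronidation best known from liver, also rose. It lies on the minus strand (chr4:70345883-70391732). Of its 50-base windows 3.17% occurred in a transcript of another gene, though its coding sequence was 90.2% identical to that of UGT2B11. It gave 17 and 18 reads in LNCaP95, against 73 and 63 in LN95(KO). The log2 fold change was 1.98 (SE 0.25, 95% interval 1.45 to 2.52, edgeR adjusted p = 3.03e-06). Beside it, of 7 hepatocyte markers 5 had fewer than 10 reads in every library, and APOA2 was listed at 0 throughout. TTR, the carrier of thyroid hormone, had 0, 4, 111 and 92 counts in the order of the replicate numbers. The part of these markers in the result was not tested.

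UGT2B11 was the most abundant enzyme of the family in both lines. It lies on the minus strand (chr4:70065669-70080466), and its substrates are less well known than those of its relatives. It gave 3266 and 3151 reads in LNCaP95, against 5083 and 6026 in LN95(KO). The difference was larger than the spread between replicates, with a log2 fold change of 0.82 (SE 0.06, 95% interval 0.70 to 0.95, edgeR adjusted p = 2.26e-09). That interval stayed under 2-fold, so the gene was not called. A lncRNA on the locus, ENSG00000250696, overlaps 18.5% of UGT2B11 exon bases, and strand was not used in counting. The lncRNA gave 15 and 20 reads in LNCaP95, against 72 and 70 in LN95(KO), between 0.459% and 1.42% of UGT2B11 reads.

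**Figure D2:**
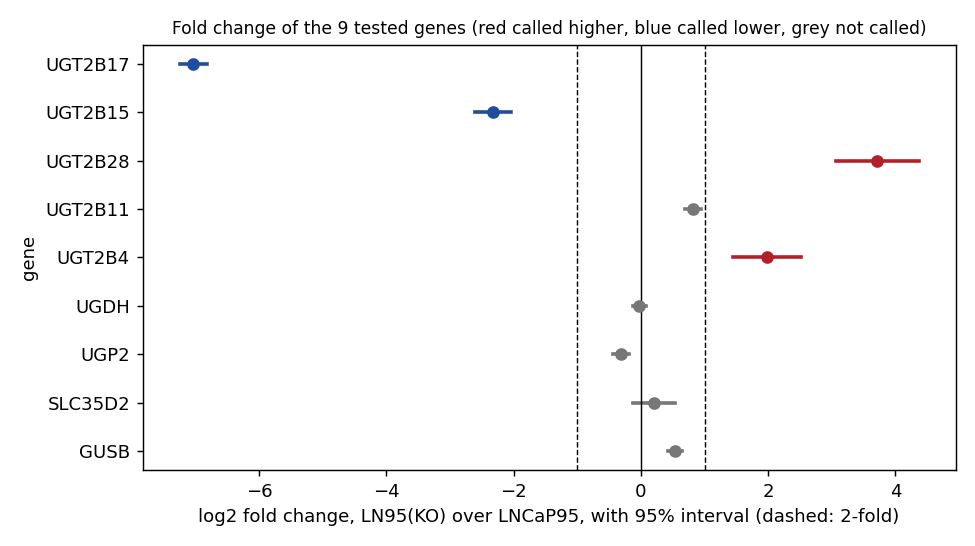
Log2 fold change of the 9 tested genes, LN95(KO) over LNCaP95, with points for the estimate and bars for its 95% interval; dashed lines mark 2-fold. The intervals of UGT2B17 and UGT2B15 lie left of the lines, those of UGT2B28 and UGT2B4 right of them, and the other 5 lie between them.

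Levels of different enzymes were then compared per length, as CPM per kilobase of merged exons. In LNCaP95, UGT2B11 stood at 75.1 and 73.0 CPM per kb, above UGT2B17 at 58.7 and 58.3. UGT2B15 followed at 10.9 and 9.24, and UGT2B4 and UGT2B28 were under 0.4. Neighbours in this order did not overlap. In LN95(KO), UGT2B11 stood at 122 and 140 CPM per kb. UGT2B28 came next at 2.71 and 3.54, then UGT2B15 at 1.80 and 2.21, UGT2B4 at 1.66 and 1.39, and UGT2B17 last at 0.461 and 0.426. Neighbours in this order did not overlap either. In CPM without length, UGT2B15 at 3.84 and 4.71 and UGT2B4 at 4.12 and 3.45 overlapped, so their order rests on the length used. Shared windows also differed, at 35.2% for UGT2B28, 27.1% for UGT2B15 and 3.17% for UGT2B4. The levels were not corrected for reads lost in this way.

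The sum over 7 UGT2B genes, with UGT2B7 and UGT2B10 added to the 5 above, moved little. It was 145.7 and 141.7 CPM per kb in LNCaP95, against 129.0 and 148.0 in LN95(KO), so the groups overlapped. The LN95(KO) mean was 96.4% of the LNCaP95 mean, a log2 ratio of -0.05, which was smaller than the spread of the sums within groups (0.10, SD on the log2 scale). The sum was not tested, and an exact two-sided permutation test of 2 libraries against 2 could not give a p below 0.333. Leaving out LN95(KO) replicate 4 moved the ratio to -0.16, and leaving out LN95(KO) replicate 3 turned it to 0.04.

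The make-up of the sum changed. UGT2B17 and UGT2B15 together held 47.8% and 47.7% of it in LNCaP95, against 1.75% and 1.78% in LN95(KO). UGT2B11 held 51.5% in each LNCaP95 library, against 94.5% and 94.7% after knockout. Without UGT2B11, the sum fell from 69.6 ± 1.36 to 7.49 ± 0.535 CPM per kb (SD, n = 2), which is 9.29-fold. These are RNA levels, and enzyme amount and activity were not measured.

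**Figure D3:**
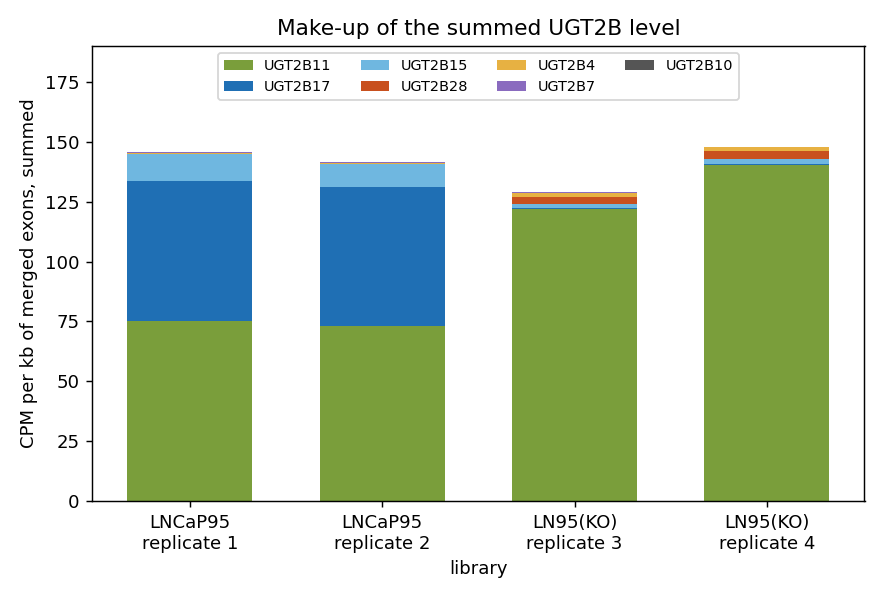
Summed level of 7 UGT2B genes in each library, in CPM per kb of merged exons, with 1 colour per gene. The bars reach 145.7, 141.7, 129.0 and 148.0, and UGT2B11 (green) takes 51.5% of each LNCaP95 bar and 94.5% and 94.7% of the LN95(KO) bars.

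The promoters of UGT2B15 and UGT2B11 are shown because these relatives moved in opposite directions. They are the 250 bases before the start of each gene from RefSeq on GRCh38.p14. Capitals mark matches, on either strand, to a forkhead motif (TGTTTAC) or to a steroid receptor hexamer (AGAACA). Entries were found for 7 of the 10 genes. UGT2B17, UGT2B28 and UGT2B4 had none.
UGT2B15 (chr4:68670653-68670902, minus strand): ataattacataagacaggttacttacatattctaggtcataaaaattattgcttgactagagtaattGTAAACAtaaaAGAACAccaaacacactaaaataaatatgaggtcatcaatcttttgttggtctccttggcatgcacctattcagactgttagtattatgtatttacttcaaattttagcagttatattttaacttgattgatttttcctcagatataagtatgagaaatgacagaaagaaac
UGT2B11 (chr4:69214749-69214998, minus strand): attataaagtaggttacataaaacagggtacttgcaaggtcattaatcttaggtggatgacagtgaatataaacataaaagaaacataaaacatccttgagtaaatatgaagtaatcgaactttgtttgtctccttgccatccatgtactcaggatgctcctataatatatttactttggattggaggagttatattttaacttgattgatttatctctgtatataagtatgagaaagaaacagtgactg

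UGT2B15 held 1 forkhead match, 183 bases before the start, and 1 steroid receptor match, 172 bases before it. The matches do not overlap. UGT2B11 held neither, and neither promoter held the HNF1 motif GTTAAT. Of all 35116 promoter entries, 2.98% held the forkhead motif in the same window, 12.4% the steroid receptor hexamer and 6.23% the HNF1 motif. The other 5 genes with an entry, UGDH, UGP2, SLC35D1, SLC35D2 and GUSB, held none of the 3. Their promoters were 62.0% to 70.4% G and C, against 28.4% in UGT2B15 and 31.2% in UGT2B11. A match describes letters and not a site in use.

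Of the genes that make UDP-glucuronate, UGDH and UGP2, neither was called. UGDH, which oxidises UDP-glucose to UDP-glucuronate, lies on the minus strand of chromosome 4 (chr4:39500375-39529931). It gave 2403 and 2372 reads in LNCaP95, against 2289 and 2307 in LN95(KO). Its log2 fold change was -0.02 (SE 0.05, 95% interval -0.13 to 0.08, edgeR adjusted p = 0.724), so any change within this interval could not be told from none. UGDH-AS1, an antisense gene over 12.8% of UGDH exon bases, had 88 and 86 counts against 44 and 44.

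UGP2, which makes UDP-glucose, fell slightly and was not called. It lies on the plus strand of chromosome 2 (chr2:64068086-64118696). It gave 2186 and 1974 reads in LNCaP95, against 1646 and 1627 in LN95(KO), with no overlap. The log2 fold change was -0.31 (SE 0.06, 95% interval -0.44 to -0.19, edgeR adjusted p = 1.85e-04).

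Of the transporters, SLC35D1 had almost no reads counted. SLC35D1, which carries UDP-glucuronate into the endoplasmic reticulum, lies on the minus strand of chromosome 1 (chr1:67465033-67519831). It had 1 count in each LNCaP95 library and 2 in each LN95(KO) library, under the 3 counts that a reading of 0 allows, so it was not tested and no fold is given. Most cells use this gene, so a low count here, like the listing at 0 of the widely used gene YTHDC1, does not show that its RNA was scarce. SLC35D2, a Golgi transporter of related nucleotide sugars on chromosome 9 (chr9:99075726-99145993, minus strand), gave 121 and 108 reads in LNCaP95, against 111 and 147 in LN95(KO). The groups overlapped, and the log2 fold change was 0.20 (SE 0.16, 95% interval -0.13 to 0.54, edgeR adjusted p = 0.283). The gene ENSG00000285269 overlaps 46.9% of SLC35D2 exon bases, and reads falling on both were left out of either count, so the SLC35D2 level is a lower limit.

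GUSB, the lysosomal beta-glucuronidase that splits glucuronic acid from its partners, moved up and was not called. It lies on the minus strand of chromosome 7 (chr7:65425671-65447202). It gave 1484 and 1548 reads in LNCaP95, against 2105 and 2194 in LN95(KO). The log2 fold change was 0.54 (SE 0.05, 95% interval 0.42 to 0.65, edgeR adjusted p = 1.70e-07), which is larger than the spread between replicates and under 2-fold. The 19 GUSB pseudogenes together had 607 and 629 counts against 572 and 559.

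Levels per length were then set side by side. In LNCaP95, UGDH stood at 32.3 ± 0.121 CPM per kb (SD, n = 2), GUSB at 21.2 ± 0.747 and UGP2 at 16.7 ± 1.11. In LN95(KO) the values were 31.8 ± 0.511, 30.7 ± 0.235 and 13.4 ± 0.4. By this length UGDH and GUSB were then near each other, with 31.4 the lower UGDH value and 30.9 the higher GUSB value. Merged exons span 4025 bases for UGDH and 3893 for GUSB, but their longest transcripts 3037 and 2555. Their order thus depends on the length used. SLC35D2 stood at 1.63 ± 0.122 and 1.87 ± 0.33, and its LN95(KO) values overlapped those of UGT2B15 and of UGT2B4. The SLC35D2 values are lower limits, so its place beside these enzymes is not settled.

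Beyond these genes, other enzymes that could conjugate were examined by list. Counts called in this and the following lists stand beside the 18.0% called over all genes tested. Of 5 other UGT2 enzymes, UGT2B7 was the single gene tested, with 17, 13, 17 and 11 counts and a log2 fold change of -0.07 (SE 0.39, edgeR adjusted p = 0.896). UGT2A1, UGT2A2 and UGT2A3 were listed at 0 in every library. Of 12 UGT1A and other UGT enzymes, 10 matched an identifier and 2 of them were tested, and both were called. UGT1A1, the enzyme that conjugates bilirubin, gave 21 and 15 reads in LNCaP95, against 905 and 827 in LN95(KO). Its log2 fold change was 5.61 (SE 0.15, edgeR adjusted p = 2.72e-15). The UGT1A genes share their last exons, with 50.1% of UGT1A1 exon bases also in other UGT1A genes, so its count rests on the part that is its own. UGT1A6 had 3, 3, 8 and 8 counts, and UGT1A4, UGT1A9 and UGT1A10 were listed at 0. UGT8, which transfers galactose to ceramide, fell with a log2 fold change of -1.74 (SE 0.14, edgeR adjusted p = 8.74e-09) from 259 and 242 counts to 67 and 79.

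Per length of all its exons, UGT1A1 was at 0.22 CPM per kb in LNCaP95. This is a lower limit, since reads on its shared exons were left out while their length was kept. In LN95(KO) it reached at least 11.5 and 10.2 CPM per kb. That was above UGT2B28, UGT2B15, UGT2B4 and UGT2B17 in the same libraries.

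The wider UDP-glucose route, 16 genes that include UGP2 and UGDH, had 15 tested and 2 called, both higher, with a median log2 fold change of 0.40 beside -0.01 over all genes tested. GPI, an enzyme of glycolysis, rose by 1.39 (SE 0.05, edgeR adjusted p = 1.12e-13) from 5580 and 5288 counts to 13484 and 14451. Uridine nucleotide supply had 11 genes tested and none called by edgeR. At an adjusted p under 0.05 with any fold 7 passed, all higher, beside 59.8% of all genes in either direction. The median was 0.18, and CMPK1, a nucleotide kinase and the most abundant of them per length, had a log2 fold change of 0.01 (SE 0.05, edgeR adjusted p = 0.921).

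Other users of UDP-glucuronate, which build hyaluronan, heparan and chondroitin chains, had 9 of 14 tested and none called by edgeR, while 1 was called without LN95(KO) replicate 4. Of the 9, 7 passed at an adjusted p under 0.05 with any fold, 5 of them lower, beside 59.8% of all genes in either direction. CHPF, a chondroitin polymerising factor and the most abundant per length, had a log2 fold change of -0.32 (SE 0.05, edgeR adjusted p = 2.17e-05). Among nucleotide sugar transporters of the SLC35 family, 15 of 17 were tested and SLC35A5 alone was called. It had 1740 and 1681 counts against 818 and 820, a log2 fold change of -1.03 (SE 0.06, edgeR adjusted p = 1.09e-10), and was not called with library totals in place of TMM. SLC35B2, which carries the sulfate donor and was the most abundant per length, had -0.05 (SE 0.06, edgeR adjusted p = 0.483). The list of androgen sulfation and desulfation, the other route that conjugates steroids, shares SLC35B2. That list had 9 of 12 tested and none called by edgeR. At an adjusted p under 0.05 with any fold 4 passed, beside 59.8% of all genes.

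Exporters of conjugates had 5 of 8 tested and 3 called, beside 18.0% of all genes tested. ABCC4 rose by 2.27 (SE 0.07, edgeR adjusted p = 5.08e-14) from 387 and 360 counts to 1825 and 1698. ABCC1, the most abundant per length, rose by 1.07 (SE 0.06, 95% interval 0.95 to 1.19, edgeR adjusted p = 3.93e-11) from 958 and 972 counts to 1979 and 1970. Its interval reached under 2-fold. ABCC4 and ABCC1 both carry organic anions such as glucuronides out of cells. ABCB1, the drug exporter P-glycoprotein, fell from 24 and 23 counts to 1 and 2, a ratio of 15.3 with an exact binomial counting interval of 4.93 to 76.9. ABCB1 passed the filter on low counts through LNCaP95 alone, where it is high, so nothing is read from 3 of 5 called. Of 16 lysosomal glycosidases and related enzymes beside GUSB, 15 were tested and IDUA alone was called, with 2 called without LN95(KO) replicate 3. IDUA, which removes iduronic acid, had a log2 fold change of -1.22 (SE 0.08, edgeR adjusted p = 4.43e-10).

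**Figure D4:**
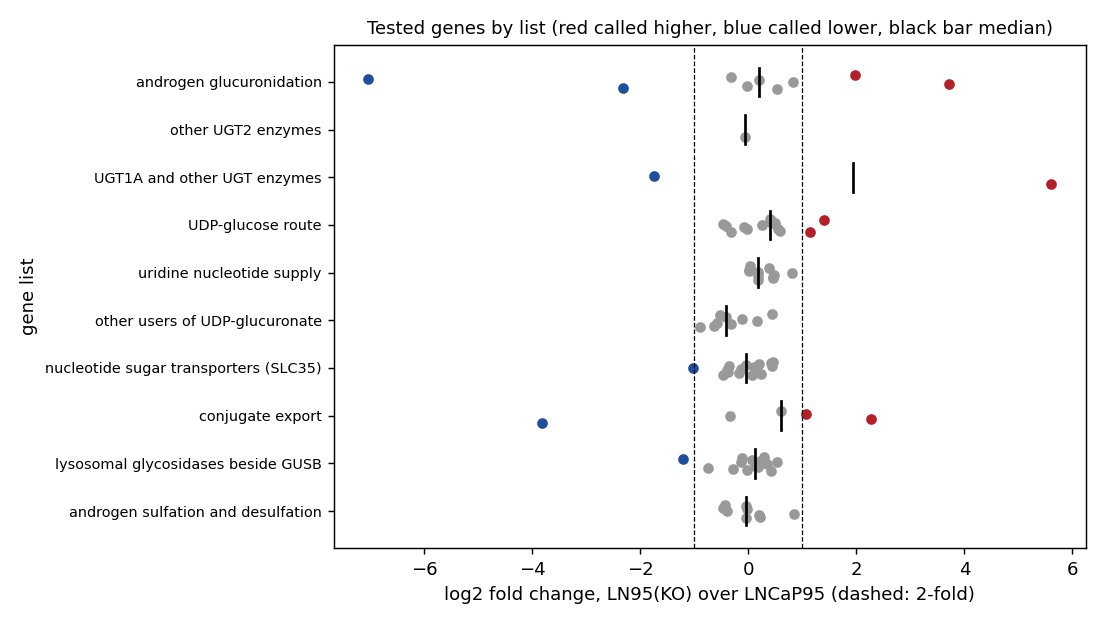
Log2 fold change of each tested gene, LN95(KO) over LNCaP95, by gene list, with a black bar for each list's median and dashed lines at 2-fold; red genes were called higher and blue ones lower. The androgen glucuronidation genes spread from -7.04 to 3.72, while no gene was called in the lists of uridine supply, other users of UDP-glucuronate or sulfation.

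The UGT2B genes share a stretch of chromosome 4 with other genes, and 20 genes of that stretch were listed in order. Of these, 8 were tested and 6 called: UGT2B17 and UGT2B15 lower, and UGT2B28, UGT2B4, TMPRSS11E and ODAM higher. The 4 UGT2B calls are those given above. UGT2B28, TMPRSS11E and ODAM passed the filter on low counts through the LN95(KO) libraries alone, where they are high, so nothing is read from 6 of 8 beside the 18.0% over all genes. TMPRSS11E, a membrane protease next to UGT2B17, had 0, 2, 17 and 29 counts in the order of the replicate numbers. Its pooled ratio was 23.5, with an exact binomial counting interval of 6.15 to 200.1. ODAM, a protein of tooth enamel formation at the far end, had 0, 1, 56 and 69 counts, a ratio of 127.9 with an interval of 22.5 to 5090. Of the 20 genes, 9 were listed at 0 in every library. They include YTHDC1, a gene used by most cells, so a listing of 0 here does not show that a gene is silent.

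**Figure D5:**
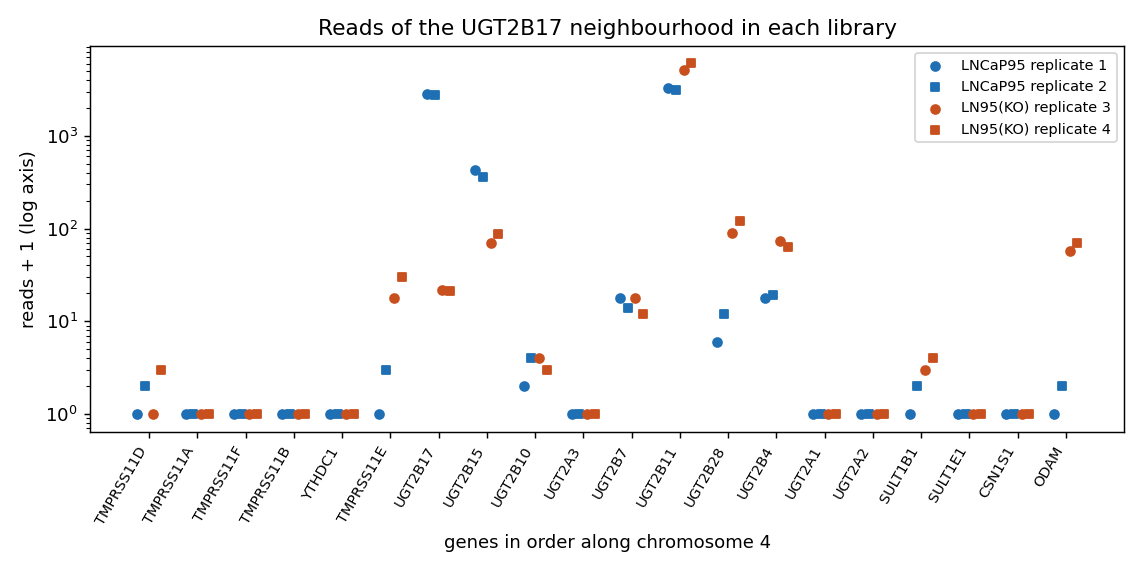
Reads plus 1 of 20 genes in order along chromosome 4, on a log axis, for each library. UGT2B17 and UGT2B15, side by side, lie lower in LN95(KO), and TMPRSS11E on one side and UGT2B28, UGT2B4 and ODAM on the other lie higher.

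Libraries held 17330338 to 18813193 gene reads, and a count of 0 allows up to 3 counts, or 0.16 to 0.173 CPM. Replicates differed beyond sampling noise, with chi-square per degree of freedom of 2.31 and 3.31, and each library was counted once. The unaligned share was 3.85% to 3.96% for LNCaP95 but 7.71% to 8.05% for LN95(KO). Its part in the results was not tested. All 10 prostate luminal markers had at least 10 reads in every library, and their sum was 3042 to 3049 CPM in LNCaP95 and 3744 to 3923 CPM in LN95(KO). Of the 10, 6 were called, beside 18.0% of all genes tested. Among them were KLK2, KLK3, TMPRSS2 and SLC45A3 higher and FOLH1 lower. KLK2 and KLK3, both targets of the androgen receptor, had log2 fold changes of 4.91 (SE 0.07, edgeR adjusted p = 8.55e-19) and 3.62 (SE 0.06, edgeR adjusted p = 1.51e-17). HOXB13, the most abundant luminal marker per length, had -0.49 (SE 0.05, edgeR adjusted p = 7.67e-08). The neuroendocrine markers summed to 49.8 to 50.9 CPM against 14.2 to 15.03 CPM. Most of that sum was ENO2, with means of 46.5 CPM in LNCaP95 and 12.2 CPM in LN95(KO). SYP had 45, 44, 42 and 42 counts and a log2 fold change of -0.05 (SE 0.22, edgeR adjusted p = 0.861). ENO2 and NCAM1 were called lower, and CHGA was listed at 0. NCAM1 passed the filter on low counts through LNCaP95 alone, where it is high, so nothing is read from its call. The basal markers summed to 0.163 to 0.218 CPM against 1.13 to 1.53 CPM. Of the 4 basal markers 1 was tested, KRT14, which was called higher on 1, 2, 17 and 20 counts. KRT14 passed the filter on low counts through LN95(KO) alone, where it is high, so nothing is read from its call. In bulk RNA, fewer cells that express a gene and less RNA per cell cannot be told apart.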

How the data were processed

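Raw read counts for each gene were used as deposited. Per the labels and the study, poly(A) RNA was selected and sequenced on the DNBseq platform, and the authors aligned the data with HISAT2 (2.1.0 in the submitters' processing notes) to the hg19 build and made the counts with HTSeq without using strand. Reads on more than 1 gene are left out by that counter. The 5 summary lines entered neither library sizes nor tests. Of 60880 identifiers, 59858 matched a symbol, and those without one held 0.0594% of reads. 2 listed symbols, UGT1A3 and UGT1A5, matched none and were not analysed here.

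Libraries were grouped by their labels, 2 in each group, and LN95(KO) was compared with LNCaP95 by edgeR's quasi-likelihood test (edgeR 4.0.16 in R 4.3.3) with TMM factors, robust estimation and filterByExpr (minimum count 10, minimum total 15). Benjamini-Hochberg adjustment covered the 15626 tested genes. Calls needed an adjusted p under 0.05 and over 2-fold change, as in the study. The standard error was the log2 fold change divided by the square root of F. CPM used TMM-scaled totals, and levels between genes used merged exon length. Coordinates and overlaps came from GENCODE on GRCh37, a later release than the one counted, and promoters from RefSeq on GRCh38.p14. Intervals on ratios cover counting error only. The script was tested on simulated data. DESeq2 (version 1.42.0), other scalings, no filter, other call rules and leaving out each library were the alternatives.

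The genes and lists were chosen with earlier results of these data known. Named genes were the 10 genes, and from each list those called (the 4 largest changes where more were called) and the most abundant per length. Names outside this rule, among them UGT1A6, UGT2A1, YTHDC1, CHGA, SYP, APOA2 and the genes overlapping or resembling another, were chosen after their values were seen. Some genes under this rule are not reported here.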

Additional observations from a re-analysis of the deposited data

Results flagged for a closer look

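Some signals lay in data that the comparisons did not use. The share of reads not aligned was higher in LN95(KO), where the lower library had 7.707%, than in LNCaP95. UGT2B27P, a pseudogene of the family, gave 2 and 1 reads in LNCaP95, against 7 and 12 in LN95(KO), so its lower LN95(KO) value of 7 was above the 3 counts that a reading of 0 allows. The lncRNA ENSG00000250696 at UGT2B11 gave 15 and 20 reads in LNCaP95 and at least 70 in LN95(KO). None of these was tested further.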

How the results depend on the processing

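Under 12 alternatives of the fit or of the call rule, 104 of 108 values of the 9 tested genes kept their direction and their call. With library totals in place of TMM the UGDH estimate turned to 0.0334, still within its interval. With an adjusted p at any fold, 7 of the 9 genes rather than 4 were called, beside 59.8% of all genes tested. This added UGP2 (-0.31), GUSB (0.54) and UGT2B11 (0.82). The calls of UGT2B17, UGT2B15, UGT2B28 and UGT2B4 held in all 12. The rule of an adjusted p at any fold kept the main fit and only loosened the call, so it could lose none. Estimates with glmTreat equalled the main ones, so it could turn no direction. Without 1 library in turn, the log2 fold change ranged from -7.09 to -6.98 for UGT2B17, from -2.48 to -2.18 for UGT2B15, from 3.26 to 4.39 for UGT2B28 and from 1.86 to 2.11 for UGT2B4. The log2 ratio of the UGT2B sums ranged from -0.1558 to 0.0426. In the lists, an adjusted p at any fold called 13 of 15 tested genes of the UDP-glucose route and 11 of 15 of the SLC35 family. That rule passed 59.8% of all genes tested. It called 7 of 11 for uridine supply and 7 of 9 other users of UDP-glucuronate, rather than 0 each. Exporters had 5 of 5, lysosomal glycosidases 10 of 15, sulfation 4 of 9 and the chromosome 4 genes 7 of 8. Nothing is read from these counts. With glmTreat, 1 gene of the UDP-glucose route, 0 of the SLC35 family and 2 rather than 3 exporters were called. Without a filter 1 other user of UDP-glucuronate and 3 UGT1A and other UGT enzymes were called, and without LN95(KO) replicate 4 also 1 other user. Without LN95(KO) replicate 3 the lysosomal glycosidases called were 2. Library totals left 0 of the SLC35 family called.
No paired analysis was possible because LNCaP95 and LN95(KO) have no replicate number in common.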
